A study of Mus musculus with 6 samples.

Results

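A set of 10 genes of the extracellular matrix were followed among the 24499 genes of an RNA-seq table of day 3 iGCBs, in vitro germinal center B cells. They were selected on measured values of this table. Fbn1, Bmp1, Col5a1, Nid1 and Fn1 were taken because they were higher in cKO than in control libraries, and Col1a1, Col1a2, Col3a1, Sparc and Lox because they report RNA of the feeder fibroblasts. The difference between genotypes is therefore a description for these 10 genes and carries no test.

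The cKO group held 3 C57BL/6J mice of the genotype Eif3e fl/fl Cγ1Cre Rosa26-YFP LSL, and the control group held 3 C57BL/6J mice that the labels call only control. By the study's description of its control animals these carry Cγ1Cre and Rosa26-YFP LSL without the floxed Eif3e alleles. The Cre is switched on when the Ig γ1 locus is transcribed, so deletion occurs in activated B cells, and both groups carry the Cre-dependent YFP reporter. Naïve splenic B cells of individual mice were purified by negative selection. They were cultured for 3 days on 40LB cells with IL-4 at 1 ng/ml, and YFP+ cells were sorted for poly(A) RNA-seq. The 40LB feeder is a BALB/c 3T3 fibroblast line that expresses CD40L and BAFF and was irradiated at 120 Gy. The ages of these mice are not given in the sources used here.

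The extracellular matrix is the network of secreted proteins between cells, and fibroblasts are its main makers. Fibrillar collagens are secreted as procollagens, trimmed by BMP1-type proteases and cross-linked by lysyl oxidases, while fibrillin microfibrils also hold TGF-β and BMP ligands in latent form. Germinal center B cells are not known as matrix producers, and in this culture fibroblast RNA can enter the sorted sample from the feeder layer.

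Library totals ranged from 39079582 to 45504570 estimated counts. Eif3e was at 173, 150 and 152 CPM, the count scaled to a common library size, in cKO replicates 1 to 3 and at 424, 401 and 392 CPM in control replicates 1 to 3, so no cKO library reached a control library. All 9 B cell markers examined were detected, with summed levels of 11250 to 11670 CPM in cKO and 14380 to 15310 CPM in control libraries. Xist had 53272, 58899 and 70912 counts in cKO replicate 2 and control replicates 1 and 2, and 16 or fewer in the other libraries. Correlations of log2 CPM were between 0.965 and 0.972 for libraries of 1 group and between 0.937 and 0.946 for libraries of different groups.

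The promoters of 6 of the 10 genes (Fbn1, Col5a1, Nid1, Col1a2, Col3a1 and Sparc) were found in the RefSeq promoter table of GRCm38.p6, which spans 250 bases before to 50 bases after each start site. All 6 are shown, first those of the 3 genes higher in cKO libraries and then those of the 3 feeder reporters, so that the letters of both kinds can be compared. Capitals mark the GC box GGGCGG, the CCAAT box CCAAT and the TATA box TATAAA, read on either strand (CCGCCC and ATTGG in reverse for the first pair).
Fbn1 (chr2:125506389-125506688, minus strand): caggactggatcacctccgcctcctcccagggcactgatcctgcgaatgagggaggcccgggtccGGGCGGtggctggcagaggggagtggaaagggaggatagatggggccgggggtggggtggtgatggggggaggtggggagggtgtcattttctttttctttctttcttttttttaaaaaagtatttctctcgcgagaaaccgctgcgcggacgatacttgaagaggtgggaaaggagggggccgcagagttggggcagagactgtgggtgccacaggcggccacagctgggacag
Col5a1 (chr2:27886175-27886474, plus strand): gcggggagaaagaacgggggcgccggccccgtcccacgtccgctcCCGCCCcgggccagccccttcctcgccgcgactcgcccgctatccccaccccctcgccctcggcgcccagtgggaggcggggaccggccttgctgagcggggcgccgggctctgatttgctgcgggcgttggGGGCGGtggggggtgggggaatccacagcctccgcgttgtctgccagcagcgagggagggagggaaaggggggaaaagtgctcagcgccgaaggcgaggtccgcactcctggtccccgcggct
Nid1 (chr13:13437352-13437651, plus strand): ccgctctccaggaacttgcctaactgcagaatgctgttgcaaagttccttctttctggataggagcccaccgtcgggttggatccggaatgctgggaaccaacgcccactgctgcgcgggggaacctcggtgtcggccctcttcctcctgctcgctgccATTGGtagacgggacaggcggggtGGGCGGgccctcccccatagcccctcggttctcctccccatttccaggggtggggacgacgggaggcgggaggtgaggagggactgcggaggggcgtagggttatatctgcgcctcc
Col1a2 (chr6:4505368-4505667, plus strand): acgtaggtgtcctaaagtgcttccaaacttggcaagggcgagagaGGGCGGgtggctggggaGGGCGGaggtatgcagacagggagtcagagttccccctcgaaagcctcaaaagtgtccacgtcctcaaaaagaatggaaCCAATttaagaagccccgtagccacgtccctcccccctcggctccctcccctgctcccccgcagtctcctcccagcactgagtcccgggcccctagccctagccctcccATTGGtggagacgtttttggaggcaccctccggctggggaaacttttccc
Col3a1 (chr1:45311288-45311587, plus strand): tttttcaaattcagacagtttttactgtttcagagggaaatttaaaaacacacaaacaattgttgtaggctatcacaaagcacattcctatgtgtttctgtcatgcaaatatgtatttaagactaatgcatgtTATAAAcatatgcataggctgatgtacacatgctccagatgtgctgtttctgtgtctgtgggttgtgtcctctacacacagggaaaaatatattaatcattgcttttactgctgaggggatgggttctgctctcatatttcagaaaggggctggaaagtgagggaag
Sparc (chr11:55420031-55420330, minus strand): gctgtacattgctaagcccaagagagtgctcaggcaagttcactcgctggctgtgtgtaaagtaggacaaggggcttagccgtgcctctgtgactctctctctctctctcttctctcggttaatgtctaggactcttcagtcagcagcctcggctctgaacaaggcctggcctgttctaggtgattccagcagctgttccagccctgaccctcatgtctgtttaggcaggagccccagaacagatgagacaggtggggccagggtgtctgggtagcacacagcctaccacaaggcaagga
The Fbn1 window held 1 GC box and the Col5a1 window 2. Nid1 had 1 GC box and 1 CCAAT box, and Col1a2 had 2 of each, none overlapping. Among 32851 mouse promoters of this length 35.7% held a GC box and 37.4% a CCAAT box. Col3a1 had 1 TATAAA, a word present in 13.6% of promoters, and Sparc had none of the words searched. TGANTCA, the AP-1 word present in 7.81%, lay in none of these 6 windows. The GC content was 60.3% for Fbn1, 75.0% for Col5a1, 64.7% for Nid1, 61.0% for Col1a2, 55.3% for Sparc and 37.7% for Col3a1, against a median of 52.7% over all promoters.

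Fbn1 encodes fibrillin-1, the backbone of microfibrils, and lies on the minus strand at chr2:125300594-125507993 (GRCm38). It had 207, 139 and 172 counts in cKO replicates 1, 2 and 3 and 0 counts in each of the 3 control libraries. These counts correspond to 4.56, 3.09 and 4.06 CPM, a mean of 3.90 ± 0.748 (SD, n = 3). Every cKO library was therefore above every control library. With the limit that 0 counts allow, 3 counts per library or 0.0719 CPM on average in the controls, the cKO mean was at least 54.3-fold higher. All Fbn1 counts were assigned to 1 RefSeq transcript of 66 exons.

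Bmp1, the procollagen C-proteinase that frees fibrillar collagens for assembly, lies on the minus strand at chr14:70474558-70520234. It was at 53.0, 68.3 and 64.4 CPM in cKO replicates 1 to 3 and at 12.7, 14.1 and 12.2 CPM in control replicates 1 to 3. The groups did not overlap, and the lowest cKO library was 3.76-fold above the highest control library. The cKO mean was 61.9 ± 7.92 CPM and the control mean 13.0 ± 0.98 CPM (SD, n = 3 each). On the log2 scale they differed by 2.25, with a standard error of 0.112. Among the controls the highest library exceeded the lowest by only 1.16-fold.

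Col5a1 encodes the α1 chain of collagen V, a minor fibrillar collagen that regulates fibril diameter, and lies on the plus strand at chr2:27886425-28039514. Its levels were 6.15, 5.25 and 4.79 CPM in cKO replicates 1 to 3, and 1.57, 2.16 and 1.58 CPM in control replicates 1 to 3. The lowest cKO library was 2.21-fold above the highest control library. The log2 fold change was 1.61 with a standard error of 0.218.

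Nid1 encodes nidogen-1, which links laminin and collagen IV in basement membranes, and lies on the plus strand at chr13:13437551-13512269. It was at 4.74, 5.31 and 6.37 CPM in cKO replicates 1 to 3 and at 1.62, 1.93 and 3.47 CPM in control replicates 1 to 3. The groups did not overlap, but control replicate 3 was close to the lowest cKO library, which was 1.36-fold above it. The log2 fold change was 1.22 with a standard error of 0.285, and 1.63 without control replicate 3. The macrophage gene Adgre1 had the same order of libraries, with 165, 210 and 235 counts in cKO and 28, 36 and 83 counts in control replicates 1 to 3. The summed level of the 9 myeloid markers, 4.08 to 6.06 CPM in cKO and 1.22 to 2.45 CPM in control libraries, consisted mostly of Adgre1. Itgam was at 0.180 ± 0.0776 CPM in cKO and 0.385 ± 0.146 CPM in controls (SD, n = 3 each), Lyz2, Csf1r, Fcgr1 and Mpo had at most 15 counts in any library, and Cd14, S100a8 and S100a9 were at 0 in every library. The part of such cells in the Nid1 level was not tested.

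Fn1 encodes fibronectin, a glycoprotein that binds integrins and collagens, and lies on the minus strand at chr1:71585520-71653200. It was at 38.3, 46.8 and 35.7 CPM in cKO replicates 1 to 3 and at 22.4, 21.5 and 13.6 CPM in control replicates 1 to 3. The lowest cKO library was 1.59-fold above the highest control library, about as far apart as the controls among themselves, which spanned 1.65-fold. The log2 fold change was 1.07 with a standard error of 0.177, and 0.88 without control replicate 3. In sorted cells, a larger share of fibroblast RNA and more RNA per cell cannot be told apart from the level of 1 gene.

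**Figure D1:**
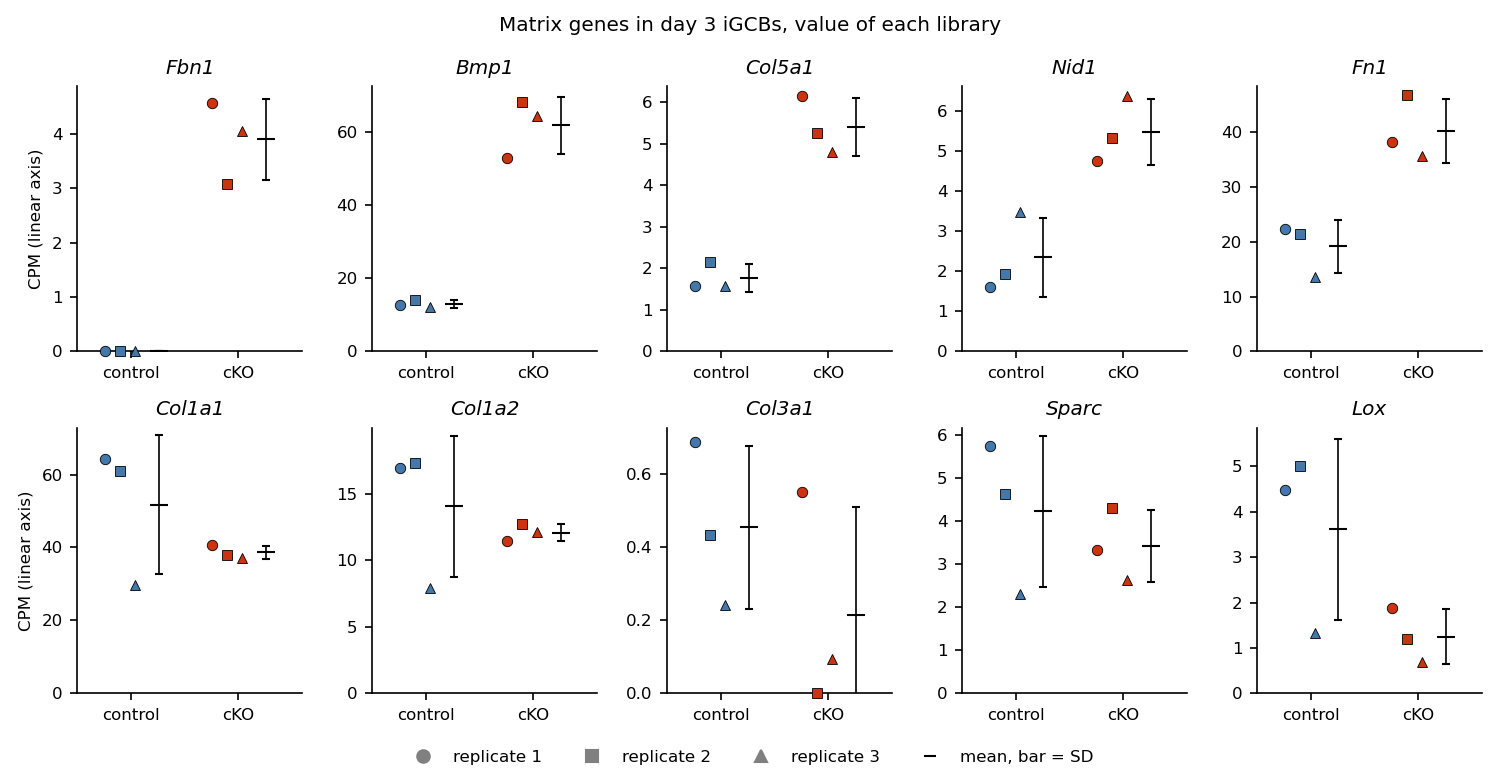
Level of each of the 10 matrix genes in CPM (linear axis from 0) in the 3 control (blue) and 3 cKO (red) libraries, with symbols for replicate numbers and black bars for the mean ± SD, cut at 0 for Col3a1. In the upper row all cKO points lie above all control points, Fbn1 being at 0 in each control library, while in the lower row the groups overlap and control replicate 3 is low.

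All 10 genes passed the filter on low counts. In 5 of 5 genes of the first kind the cKO libraries were above the control libraries without overlap, which is how they were chosen. Over all 13296 genes tested, 29.2% were higher and 29.5% lower in cKO without overlap.

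The feeder reporters showed another pattern. Col1a1, the α1 chain of collagen I and the most abundant of them, lies on the plus strand at chr11:94936224-94953042. It was at 40.8, 38.0 and 37.1 CPM in cKO replicates 1 to 3 and at 64.3, 60.9 and 29.9 CPM in control replicates 1 to 3. The cKO libraries lay close together and within the span of the controls, of which replicate 3 was the low one. The log2 fold change was −0.42 with a standard error of 0.226.

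Col1a2, the partner chain of collagen I, lies on the plus strand at chr6:4504814-4541544. It was at 11.4, 12.7 and 12.1 CPM in cKO replicates 1 to 3 and at 16.9, 17.3 and 7.94 CPM in control replicates 1 to 3. It kept close to Col1a1 in every library, at 28.0%, 33.4% and 32.6% of the Col1a1 level in cKO and 26.3%, 28.4% and 26.6% in control replicates 1 to 3. The 2 chains were thus high and low together across libraries of unequal Col1a1 level. This is a ratio of CPM and not of molecules, since it is not divided by length.

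Sparc, a collagen-binding glycoprotein (chr11:55394500-55423183, minus strand), was at 3.33, 4.31 and 2.64 CPM in cKO and 5.74, 4.63 and 2.31 CPM in control replicates 1 to 3. Lox, the lysyl oxidase that cross-links collagen and elastin (chr18:52516067-52529867, minus strand), was at 1.87, 1.20 and 0.684 CPM in cKO and 4.48, 5.01 and 1.34 CPM in control replicates 1 to 3. Col3a1, the chain of collagen III (chr1:45311538-45349706, plus strand), had 25, 0 and 4 counts in cKO and 31, 17 and 10 counts in control replicates 1 to 3. All 3 overlapped between groups. Lox was at 1.84% to 4.60% of the Col1a1 level in cKO and at 4.47% to 8.22% in controls, and these ranges overlapped too. The log2 fold changes were −0.30 for Sparc (standard error 0.321), −1.52 for Lox (standard error 0.495) and −1.06 for Col3a1 (standard error 1.00). That of Col3a1 became −3.22 without cKO replicate 1. With the level of Xist as a covariate that of Sparc became 0.08, and that of Col1a2 went from −0.22 to 0.09.

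The summed level of the 5 reporters was 57.9, 56.2 and 52.7 CPM in cKO replicates 1 to 3 and 92.1, 88.3 and 41.7 CPM in control replicates 1 to 3. A separate list of 35 other fibroblast markers, 19 of which are also matrix genes counted further on, summed to 76.5, 83.1 and 62.1 CPM in cKO and 110, 103 and 71.5 CPM in control replicates 1 to 3. Of its 23 genes tested, edgeR called 0 higher and 2 lower in cKO, Thbs1 among them, by an adjusted p under 0.05 and more than 1.5-fold. Over all genes tested 10.4% were called higher and 10.6% lower. At an unadjusted p under 0.05 the number higher was 0 in edgeR, against 27.2% of all genes, and DESeq2 also called 0 higher. The median log2 fold change was −0.36. Col6a3, Lum and Postn were at 0 in all libraries. Tnfsf13b and Cd40lg, the genes of the ligands that the feeder expresses, summed to 2.13 to 2.42 CPM in cKO and 1.85 to 4.17 CPM in controls. None of these summed levels was higher in all cKO than in all control libraries.

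Relative to the summed feeder reporters of the same library, Fbn1 was at 7.87%, 5.49% and 7.70% in cKO replicates 1 to 3 and at 0% in each control. Bmp1 was at 91.5%, 121% and 122% in cKO and at 13.8%, 15.96% and 29.2% in control replicates 1 to 3. Col5a1 was at 10.6%, 9.32% and 9.08% in cKO and at 1.71%, 2.45% and 3.79% in control replicates 1 to 3. These 3 genes were also higher in every cKO library on this scale. All 5 genes set against the reporters were chosen for being higher in cKO, so these ratios are a description and no test.
Fn1 was at 66.1%, 83.2% and 67.8% in cKO and at 24.3%, 24.3% and 32.6% in control replicates 1 to 3, also without overlap. The most abundant genes of the separate fibroblast list were Thy1, Timp2 and Cyr61. Thy1 was at 31.5, 23.6 and 22.8 CPM in control replicates 1 to 3, where Col1a1 was at 64.3, 60.9 and 29.9 CPM. On that list the Fn1 ratio hardly varied among the controls, at 20.4%, 20.8% and 19.0%, and was 50.1%, 56.3% and 57.6% in cKO replicates 1 to 3. Nid1 was the exception, at 8.18%, 9.44% and 12.1% in cKO and at 1.76%, 2.19% and 8.33% in control replicates 1 to 3, so control replicate 3 was above cKO replicate 1. Against the separate list Nid1 did not overlap, at 6.19% to 10.3% in cKO and 1.47% to 4.86% in controls.

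**Figure D2:**
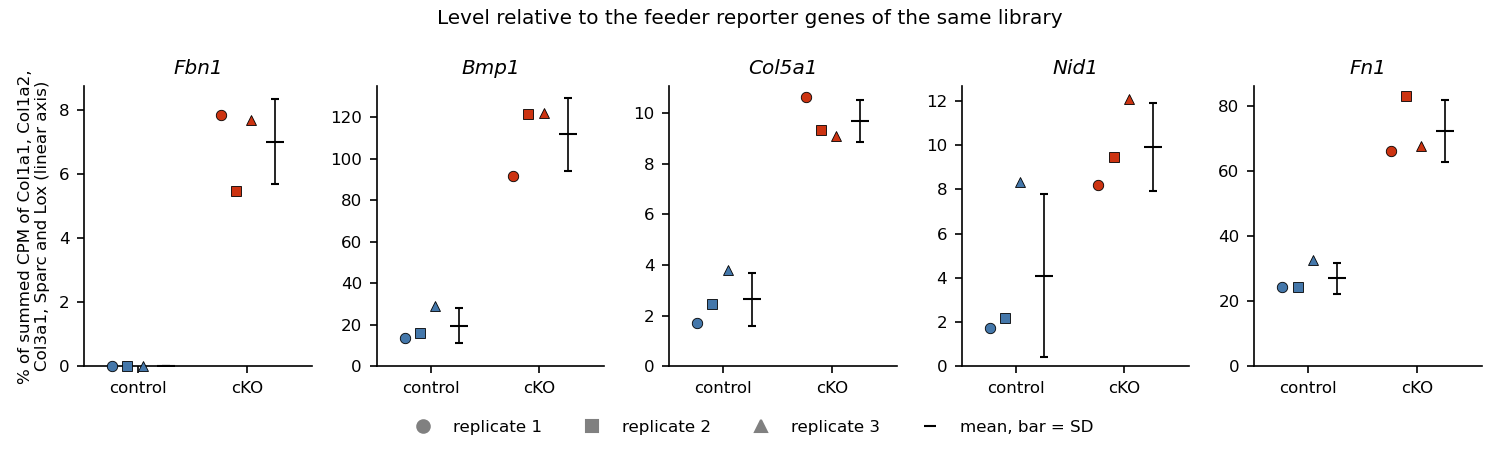
Level of the 5 genes taken for rising, as a percentage of the summed CPM of Col1a1, Col1a2, Col3a1, Sparc and Lox in the same library (linear axis from 0), for 3 control (blue) and 3 cKO (red) libraries with mean ± SD. Fbn1, Bmp1, Col5a1 and Fn1 are above the controls in every cKO library, and Nid1 in control replicate 3 reaches 8.33%, above cKO replicate 1 at 8.18%.

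Within the control group, the genes differed in how far they followed the feeder level. From the highest to the lowest control library Col1a1 spanned 2.16-fold, Col1a2 2.18-fold, Sparc 2.49-fold and Lox 3.75-fold, each with its lowest value in replicate 3. Fn1 was lowest in the same replicate and spanned 1.65-fold. Col5a1 spanned 1.37-fold. Bmp1 spanned 1.16-fold, and Nid1 spanned 2.15-fold with its highest value in replicate 3. With 3 libraries these orders are a description.

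**Figure D3:**
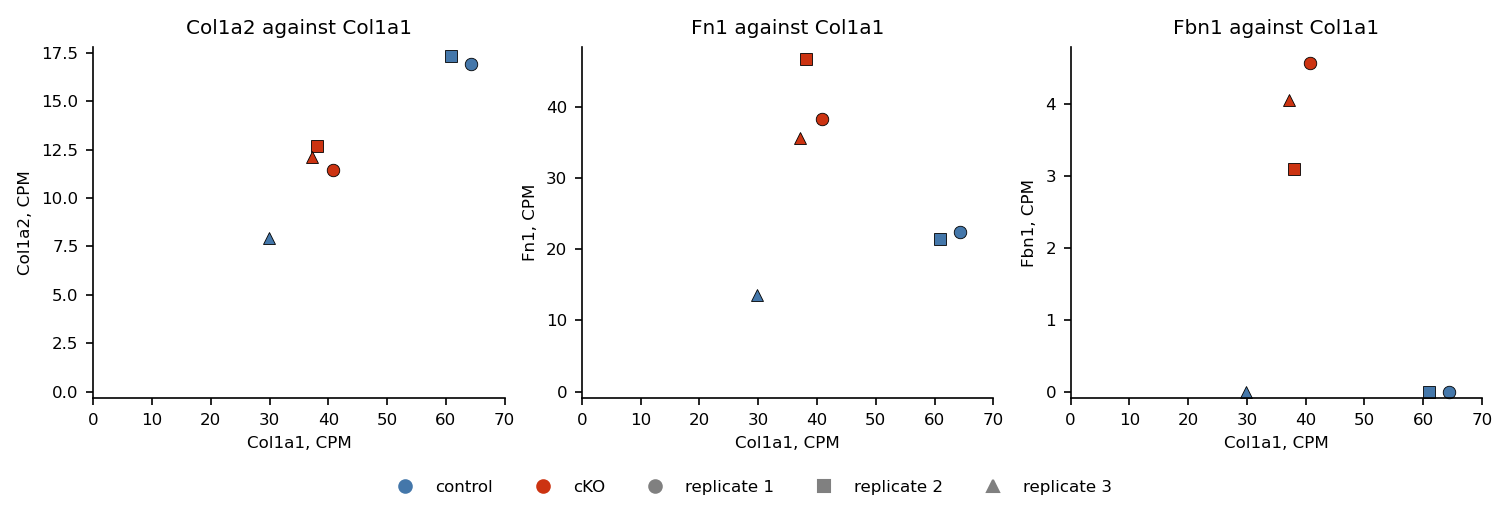
Level of Col1a2, Fn1 and Fbn1 (vertical axes, CPM) against that of Col1a1 (horizontal axes, CPM) in each of the 3 control (blue) and 3 cKO (red) libraries. Col1a2 tracks Col1a1 over both groups, Fn1 has a low and a high set of libraries by genotype, and Fbn1 is at 0 in each control library. Fn1 and Fbn1 were chosen for being higher in cKO, and the source of their RNA was not tested.

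To compare levels between genes, CPM were divided by the length of 1 RefSeq transcript per gene. In cKO iGCBs the mean level per kilobase was highest for Bmp1 at 16.8 ± 2.15 CPM per kb, followed by Col1a1 at 6.52 ± 0.318 and Fn1 at 5.01 ± 0.720 (SD, n = 3 each). Col1a2 at 2.26, Sparc at 1.49, Nid1 at 0.898, Col5a1 at 0.642, Fbn1 at 0.396, Lox at 0.264 and Col3a1 at 0.0387 CPM per kb followed. Among neighbours in this order, mean ± SD overlapped for Fbn1 and Lox. In control iGCBs Col1a1 led at 8.72 ± 3.20 CPM per kb, followed by Bmp1 at 3.53 ± 0.265, Col1a2 at 2.63, Fn1 at 2.38 ± 0.601, Sparc at 1.84, Lox at 0.761, Nid1 at 0.384, Col5a1 at 0.211, Col3a1 at 0.0816 and Fbn1 at 0. From Bmp1 to Col5a1 each gene overlapped its neighbour by mean ± SD.

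The split of counts between RefSeq transcripts was not used in choosing the genes and was tested. Of 2990 genes tested for transcript use, 41 (1.37%) had an adjusted p under 0.05 by edgeR's diffSpliceDGE with the Simes method. The protein-coding Bmp1 transcript NM_009755 held 67.0%, 74.7% and 71.8% of the counts in cKO replicates 1 to 3 and 87.0%, 65.3% and 77.7% in control replicates 1 to 3, the noncoding NR_033241 holding the rest. The groups overlapped and the test gave an unadjusted p of 0.787 and an adjusted p of 1 (edgeR). Both transcripts were thus higher in cKO libraries.

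For Sparc the share of NM_009242 was 55.0%, 89.7% and 76.8% in cKO and 74.1%, 100% and 100% in control replicates 1 to 3, with an adjusted p of 1 (edgeR). Fn1 counts were spread over 7 RefSeq transcripts whose shares moved between libraries of 1 group, with NM_010233 at 52.2%, 1.30% and 100% in control and 23.2%, 0.903% and 1.85% in cKO replicates 1 to 3. With that spread the test gave an adjusted p of 1 (edgeR), and a difference in Fn1 transcript use was not detectable against this spread between libraries of 1 group. Fbn1 and Nid1 each had counts on 1 transcript.

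Outside the 10 genes, Loxl4, a lysyl oxidase relative, was the gene called among the 26 tested for transcript use that belong to the 10 or to the matrix lists, with an adjusted p of 0.0152 (edgeR). NM_001164311 held 47.2%, 87.9% and 88.1% of its counts in control replicates 1 to 3 and 0% in each cKO library, where NM_053083 held all. Its gene level overlapped between groups, with means of 6.47 ± 0.395 CPM for cKO and 5.18 ± 1.47 CPM for controls (SD, n = 3 each). The call was lost without cKO replicate 1 (adjusted p = 0.0680), 2 (0.0759) or 3 (0.0792) and without control replicate 2 (0.0513) in edgeR. It was also lost with the replicate number as a block (adjusted p = 0.186, edgeR), and a filter of at least 10 counts in every library left Loxl4 untested.

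**Figure D4:**
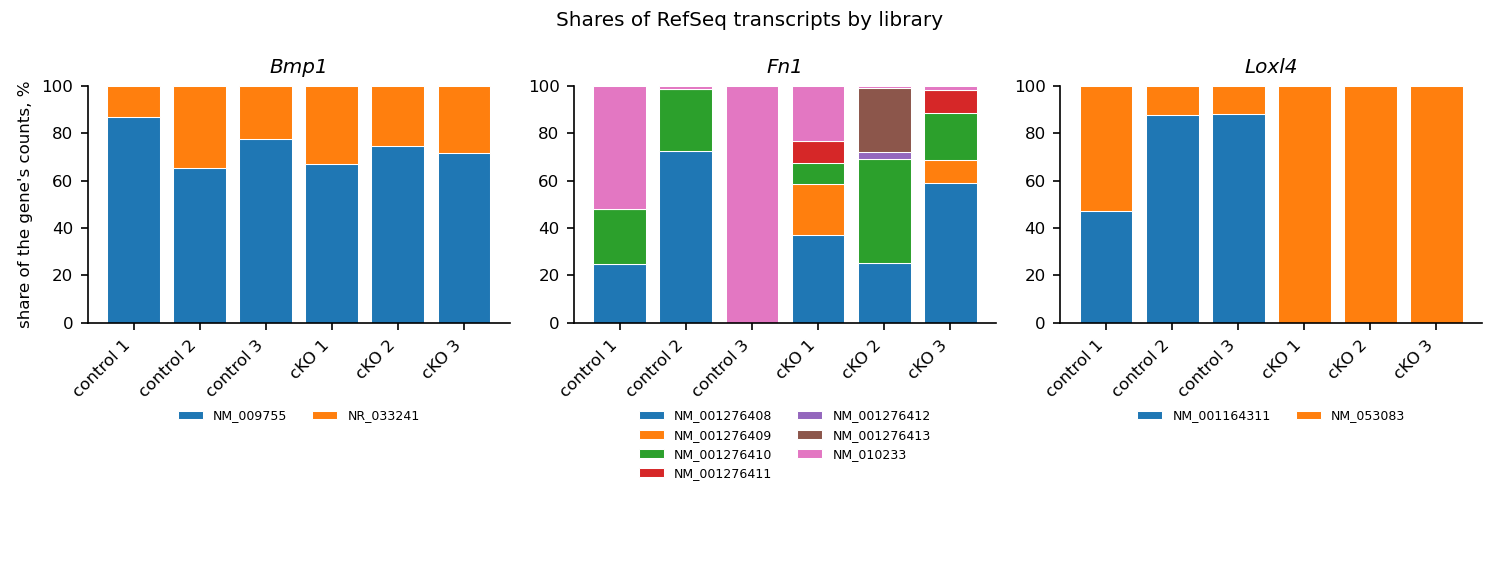
Share of each gene's estimated counts (vertical axis, percent) on each RefSeq transcript of Bmp1, Fn1 and Loxl4, as stacked bars for control replicates 1 to 3 and cKO replicates 1 to 3. The Bmp1 shares overlap between the groups, the Fn1 shares differ from library to library, and Loxl4 uses NM_053083 for 100% of its counts in every cKO library.

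Further matrix genes were taken in 8 lists by role, with the 10 genes left out. Of 220 listed genes 129 were tested, 21 (16.3%) were called higher and 17 (13.2%) lower in cKO in edgeR (adjusted p under 0.05, change over 1.5-fold). Over all genes tested the shares called were 10.4% higher and 10.6% lower. The median log2 fold change was 0.08 over the listed genes and 0.00 over all genes. The remaining 91 genes were not called. Of the 129 genes 27.1% were higher and 20.9% lower in cKO without overlap between groups, against the 29.2% and 29.5% of all genes given above.

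Among 12 microfibril genes tested 1 was called higher and 1 lower. The lower one was Ltbp3, which stores latent TGF-β, with means of 2.13 ± 0.452 CPM in the cKO and 4.68 ± 1.01 CPM in the control libraries (adjusted p = 0.00339, edgeR). Fbn2, the relative of Fbn1, and Eln, elastin, had 0 counts in all libraries.

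Of 18 collagen genes tested 5 were called higher and 2 lower. Col27a1, a fibrillar collagen, was at 16.1, 14.6 and 15.3 CPM in cKO and at 0.864, 2.47 and 2.38 CPM in control replicates 1 to 3, which gave a log2 fold change of 3.02 with a standard error of 0.303 (edgeR, adjusted p = 2.75e-05). This log2 fold change exceeded that of 2.25 for Bmp1. Col9a3, a chain of the fibril-associated collagen IX, was at 1.76 ± 0.874 CPM in cKO and 0.353 ± 0.119 CPM in controls (adjusted p = 0.00288, edgeR). Col5a2, the partner chain of Col5a1, did not pass the test: it was at 3.11, 2.36 and 2.19 CPM in cKO and 5.25, 4.22 and 1.89 CPM in control replicates 1 to 3, with its low value in the same control library as Col1a1.

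Of 21 collagen processing genes tested 3 were called higher and 2 lower. P3h1, a prolyl 3-hydroxylase of procollagen, was at 38.3, 39.1 and 36.7 CPM in cKO and at 11.4, 10.6 and 13.6 CPM in control replicates 1 to 3 (log2 fold change 1.68, standard error 0.107, adjusted p = 2.36e-06, edgeR). Plod1, a lysyl hydroxylase, rose from 2.30 ± 0.246 to 5.21 ± 0.452 CPM. P4ha1, a prolyl 4-hydroxylase subunit, fell from 143 ± 19.7 to 85.2 ± 22.6 CPM, and this call was lost without cKO replicate 3 (log2 fold change −0.55 in place of −0.75). Adamts14, a procollagen N-proteinase, fell from 5.06 ± 1.43 to 2.03 ± 0.732 CPM. Tll1, a protease of the Bmp1 family named after its values were seen, had 16, 46 and 15 counts in cKO and 0 in each control library. It was at least 8.02-fold higher in cKO by the same limit of 3 counts per library. That bound was 4.91-fold without cKO replicate 2, which had most of the counts. Tll1 was called (adjusted p = 0.00231, edgeR) but passed the filter on low counts only through its cKO libraries. This p is therefore no support for the difference, and a filter of at least 10 counts in every library would leave Tll1 untested.

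Of 23 genes tested in the list of matrix proteases 0 were called higher and 4 (17.4%) lower in cKO by edgeR. Over all genes tested 10.4% were called higher and 10.6% lower. The proteases Bmp1 and Tll1, both higher in cKO, are not in this list. At an unadjusted p under 0.05 in edgeR 1 was higher, Adam10, which also passed the adjusted threshold (adjusted p = 0.0124) but not the 1.5-fold one, with a log2 fold change of 0.21, and DESeq2 called 1 higher, Adamts17, which the filter had kept out of the 23 tested in edgeR and which had 5, 10 and 6 counts in cKO and 0 in each control library. Both are named after their values were seen. Adam15 fell from 9.37 ± 0.872 to 5.34 ± 0.656 CPM, and Adamts6 from 16.8 ± 2.23 to 9.94 ± 1.18 CPM (adjusted p = 0.00122 and 0.00107, edgeR). Both encode metalloproteases with a disintegrin domain. Of 6 protease inhibitors tested 1 was called higher and 1 lower. Serpine2, protease nexin-1, rose from 4.27 ± 1.02 to 9.30 ± 1.60 CPM.

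Of 17 glycoprotein and proteoglycan genes tested 3 were called higher and 1 lower. Agrn, the heparan sulfate proteoglycan agrin, was at 17.1, 17.8 and 17.9 CPM in cKO and at 6.96, 6.08 and 6.05 CPM in control replicates 1 to 3 (log2 fold change 1.47, standard error 0.112, adjusted p = 5.49e-06, edgeR). Spon1, the matrix glycoprotein spondin-1, rose from 0.774 ± 0.373 to 3.02 ± 0.809 CPM. Hspg2, which encodes perlecan of basement membranes, rose from 57.6 ± 13.0 to 89.2 ± 7.98 CPM, a call lost without control replicate 3 (log2 fold change 0.46 in place of 0.63). Thbs1, thrombospondin-1 and also a fibroblast marker, fell from 7.40 ± 2.72 to 3.97 ± 0.922 CPM, a call lost without cKO replicate 3 or control replicate 2 (log2 fold change −0.72 and −0.57 in place of −0.90) and with the level of Xist as a covariate (−0.75).

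Of 14 matrix receptors tested 3 were called higher and 3 lower. Cd44, the hyaluronan receptor, rose from 243 ± 8.85 to 409 ± 20.7 CPM. Sdc1, syndecan-1, which B cells raise on becoming plasma cells, rose from 4.70 ± 0.852 to 14.2 ± 1.04 CPM, while Sdc4, syndecan-4, fell from 300.0 ± 3.12 to 134 ± 4.37 CPM. Itga10, a collagen-binding integrin chain, rose from 2.47 ± 0.170 to 5.32 ± 0.931 CPM. Itgb3, the β3 integrin chain of fibronectin and vitronectin receptors, fell from 155 ± 9.19 to 61.0 ± 12.0 CPM (adjusted p = 1.21e-05, edgeR).

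Of 18 genes of TGF-β and BMP signalling tested 5 were called higher and 3 lower. Id3, a target of BMP and other signals, was at 68.0, 67.2 and 58.7 CPM in cKO and at 263, 248 and 230 CPM in control replicates 1 to 3, which gave a log2 fold change of −1.93 with a standard error of 0.0741 (edgeR, adjusted p = 3.42e-07). Skil, a repressor of SMAD transcription factors, fell from 286 ± 10.8 to 148 ± 14.5 CPM. Tgfbr2, the type II TGF-β receptor, fell from 232 ± 17.3 to 152 ± 15.3 CPM, a call lost without cKO replicate 2 or control replicate 2 (log2 fold change −0.54 and −0.58 in place of −0.61). Tgfbr3, betaglycan, rose from 2.23 ± 0.791 to 6.14 ± 0.386 CPM, and Acvr1, a type I BMP receptor, from 1.38 ± 0.674 to 3.72 ± 0.452 CPM. Smad2, a transducer of TGF-β, rose from 49.1 ± 3.83 to 74.1 ± 1.53 CPM, close to the 1.5-fold limit, and its call was lost without cKO replicate 3 or control replicate 2 or 3.

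**Figure D5:**
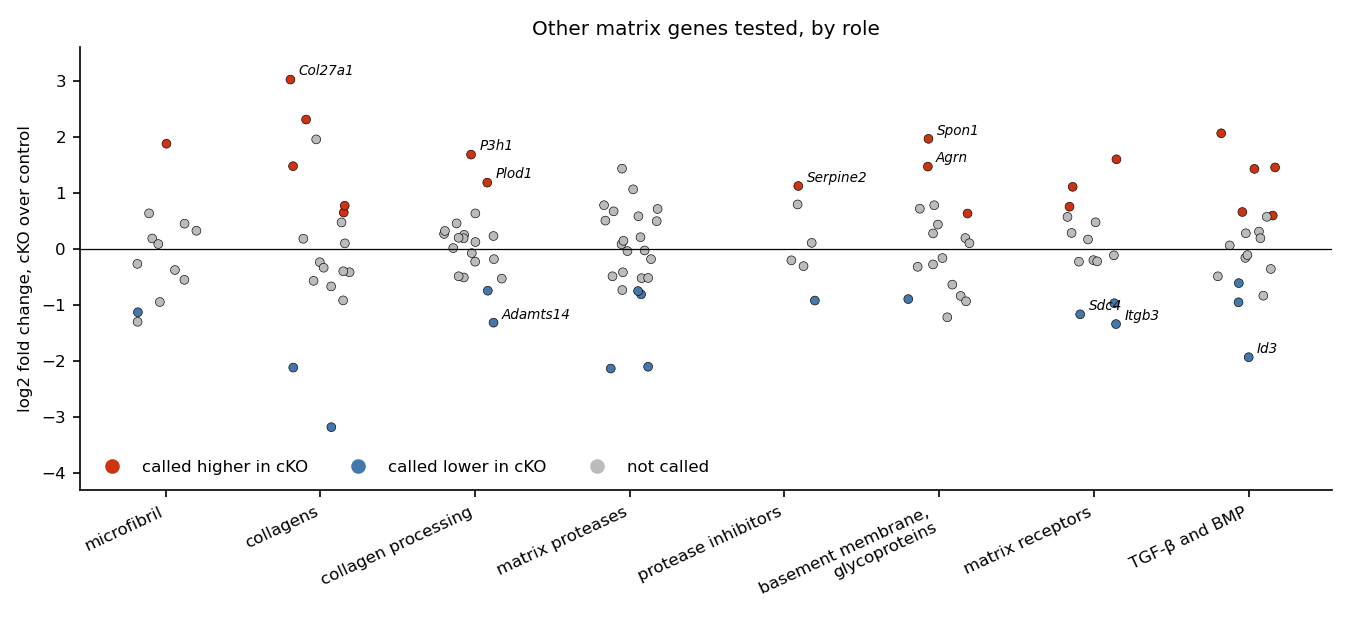
Log2 fold change of cKO over control (vertical axis) for 128 of the 129 tested matrix genes other than the 10, in 8 lists by role (horizontal axis, points spread sideways at random), leaving out Tll1, which is at 0 in all controls. Red points were called higher and blue points lower in cKO. Both colours occur in every list but that of the matrix proteases, which leaves out Bmp1 and Tll1. There 0 of 23 were called higher and 4 lower, against 10.4% higher and 10.6% lower over all genes tested.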

How the data were processed

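RNA-seq of YFP+ iGCBs was analysed for 3 cKO and 3 control mice. The authors aligned trimmed reads with HISAT2 to mm10, quantified them with StringTie and deposited the estimated counts that its prepDE script gives for genes and RefSeq transcripts, without normalization. Versions are not given in the sources used here. StringTie assigns reads by coverage, so these estimated counts are not read tallies and transcript shares can jump between libraries. They are already whole. At these depths 3 counts are 0.0661 to 0.0763 CPM, which covers counting error only. The growth protocol in the labels gives a longer culture than the titles, which say 3 days.

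In R 4.3.3, genes were kept by edgeR 4.0.16's filterByExpr (minimum count 10), scaled by TMM and tested by its quasi-likelihood test for the difference between cKO and control, no covariate being used and p-values being adjusted by Benjamini-Hochberg over all 13296 genes. Calls needed an adjusted p under 0.05 and over 1.5-fold. CPM are TMM-scaled. RefSeq transcripts were matched to genes for 34674 of 36026. Loci are from GENCODE M21 on GRCm38, the same assembly as mm10, and none of the 10 genes overlapped another tested gene. Fits were tested on simulated data. The test of transcript use missed the limit first set there, which was then lowered.

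The 10 genes and the lists were chosen with earlier results of these data known, and the difference in the 10 genes was not tested. Of each matrix list the text names the 2 called genes with the largest change in each direction at 1 CPM or more, and any called gene of 50 CPM or more on average, except 1 that is not reported here. Other genes are named as relatives of the 10, as markers or by likeness. Alternatives were the tool DESeq2 1.42.0, its size factors within edgeR, scaling by totals alone, other filters on low counts, no fold change cutoff, the replicate number as a block, the separate fibroblast list as feeder level, another statistic for transcript use and each library left out. The level of Xist as a covariate was added after the data had been seen.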

Additional observations from a re-analysis of the deposited data

How the results depend on the processing

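The choice of the 5 genes taken for rising fixes their direction, so only the size of their difference is given. Leaving out 1 library at a time, the log2 fold change ranged from 2.17 to 2.35 for Bmp1, 1.5 to 1.76 for Col5a1, 1.01 to 1.63 for Nid1 and 0.88 to 1.20 for Fn1, and the lower bound of Fbn1 from 49.7-fold to 59.9-fold. Col1a1 ranged from −0.69 to −0.23, Col1a2 from −0.50 to −0.05, Sparc from −0.60 to −0.01 and Lox from −1.93 to −1.22. Col3a1, with few counts, ranged from −3.22 without cKO replicate 1 to −0.48. With Xist as a covariate the log2 fold change of Col1a2 became 0.09 and that of Sparc 0.08, above 0, and the cause was not tested. Without a fold change cutoff 3204 of all 13296 genes tested were higher and 3264 lower, and of the 129 matrix genes 29 were higher and 25 lower. Leaving out 1 library gave 19 to 22 higher and 14 to 19 lower matrix genes, DESeq2 gave 23 and 19, and Xist as a covariate 21 and 12. Of 26 matrix genes taken by the naming rule 20 kept their call in every alternative that tested them and 6 lost it in some, with 0 reversed. The filter of at least 10 counts in every library left Col9a3 untested.

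For transcript use, 0 matrix genes were called with at least 10 counts in every library, 2 by the gene-level F test (98 of all genes), and 0 to 2 with 1 library left out. The replicate block left 0 of all genes and 0 matrix genes for transcript use. Deviations of same-numbered libraries correlated at 0.0102, 0.0729 and 0.107, and those of differently numbered libraries at −0.130 to 0.0708. These values do not settle whether the numbers pair the mice. The study used paired t tests for its culture and flow cytometry measures of control and cKO iGCBs. The main fit was unpaired, and the replicate block gave 22 higher and 17 lower matrix genes. Few counts limit the precision for Col3a1 and Fbn1. Lox, at 29 to 202 counts, had a standard error of 0.495 and spanned 3.75-fold among the controls.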

Other observations

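The nearest tested gene on each side of the 10 loci was examined, and of these Gpr137b, Lyst and Slc36a1 were called, each lower in cKO. Dut and Cep152, on either side of Fbn1 at 42.0 and 55.1 kb, had log2 fold changes of −0.01 and 0.20, and neither was called by edgeR. Polr3d and Reep4, which flank Bmp1, were at 0.45 and −0.43, also not called. Gpr137b and Lyst flank Nid1, Gpr137b falling from 9.45 ± 0.711 to 2.82 ± 0.704 CPM and Lyst from 222 ± 24.6 to 117 ± 5.13 CPM (SD, n = 3 each).

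Among 11405 genes of at least 1 CPM, the 5 whose log2 CPM were most like Fbn1 over the 6 libraries were Fbxo42, Ydjc, Erc1, Nrip1 and Rab28, with Pearson's r of 0.999. For Bmp1 they were Ppp2r5e, Dact3, Prkca, Aoc2 and Mettl13, with r of 0.999 to 1.00. These coefficients are a description over 6 points that fall into 2 groups of libraries, and Fbn1 enters with 0 counts in 3 of them. For Col1a1 they were Anxa8, Zbtb34, Zfp52, Cpm and Col5a2, with r of 0.973 to 0.983, and all 5 were lowest in control replicate 3.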
